A study of Drosophila melanogaster with 4 samples.

Results

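The 5 core circadian clock genes per, tim, vri, Clk and Pdp1 were examined for acetylation of histone H4 at lysine 8 (H4K8ac) in nuclei of adult heads of Drosophila melanogaster, the stage being labelled as mixed adult. Each gene was represented by 1 fixed interval in FlyBase release 5 coordinates, and its members were the enriched regions, called clusters, that overlapped this interval or 5 kb on either side. By this rule 12 of the 8148 clusters of replicate 1 were members, 16 of the 8140 of replicate 2, and 15 of the 10650 of the authors' combined replicate set. The flies carried the wild-type genotype of the strain Oregon-R (Oregon-R-modENCODE), came from population cages and received no treatment. Of the 4 libraries, 2 were H4K8ac chromatin immunoprecipitations (ChIP) and 2 were inputs, which have no list of their own here. Whether the inputs served as the control of each list was not checked. Heads were separated from whole flies with sieves, so all head cell types were pooled, and clock neurons are a small part of them. The labels used here give neither the sex of the flies nor a time of day at collection. The lists hold places and scores but no read totals, so depth is unknown and no error of a single score can be given. Nothing in the labels says that the replicates came from separate fly collections, and their spread may be technical. The head label was not checked against marker genes, since no other gene places in release 5 were used here.

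The fly clock is a transcriptional feedback loop. The proteins Clock (CLK) and Cycle (CYC) form a dimer that binds E-boxes and activates per, tim, vri and Pdp1. Period (PER) and Timeless (TIM) then enter the nucleus and inhibit CLK and CYC, while Vrille (VRI) represses Clk and PAR-domain protein 1 (PDP1) activates it. H4K8ac is a mark of open and active chromatin. In heads the clock runs in photoreceptors, glia and fat cells as well as in the clock neurons.

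The intervals of the rule were first set against the gene places in RefSeq's Release 6 table, a later build, without converting any coordinate. Clusters tended to lie away from gene ends, so the offset between the builds was read at the lowest correlation of cluster coverage with gene ends, taken over 100 bp bins within 2.5 Mb of each interval. These correlations were weak. Around per the lowest r was -0.074 in replicate 1 and -0.080 in replicate 2, beside highest values of 0.046 and 0.064. Around Clk the lowest r was -0.117 and -0.120, beside -0.080 and -0.073 at an offset of 0 kb. Around tim the offset of the lowest r lay between -0.1 and 0 kb, and around vri between -0.3 and 0 kb. Around per it was 107.1 to 111.6 kb, and the per interval itself differed from the Release 6 place by 106.6 kb at its start and 105.8 kb at its end. These values do not match to the kb, so the offsets read in this way are approximate. Around Clk and around Pdp1 the offset was 6.5 kb in replicate 1, 6.6 kb in replicate 2, and 7.4 kb in the combined set. The Clk interval nevertheless differed from the Release 6 place of Clk by only 0.233 kb at its start and -0.397 kb at its end. It therefore appears to be placed on Release 6 and to lie about 6.6 kb too high on 3L for these files. The coverage of Clk is for that reason given both for the interval of the rule and for the interval moved down by 6.6 kb. The counts of members and the replicate likeness refer to the unmoved interval of the rule with 5 kb on either side. The stretch up to Pdp1 also refers to the unmoved intervals. The vri interval, at 16 kb, leaves out part of a gene that measures 22.3 kb in the Release 6 table, and its start there differs from that of the interval by -8.06 kb. The Pdp1 interval holds 38 kb of a gene that measures 55.9 kb there. The transcribed strand is not in the sources used here, so ends are called lower and higher by coordinate.

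**Figure D1:**
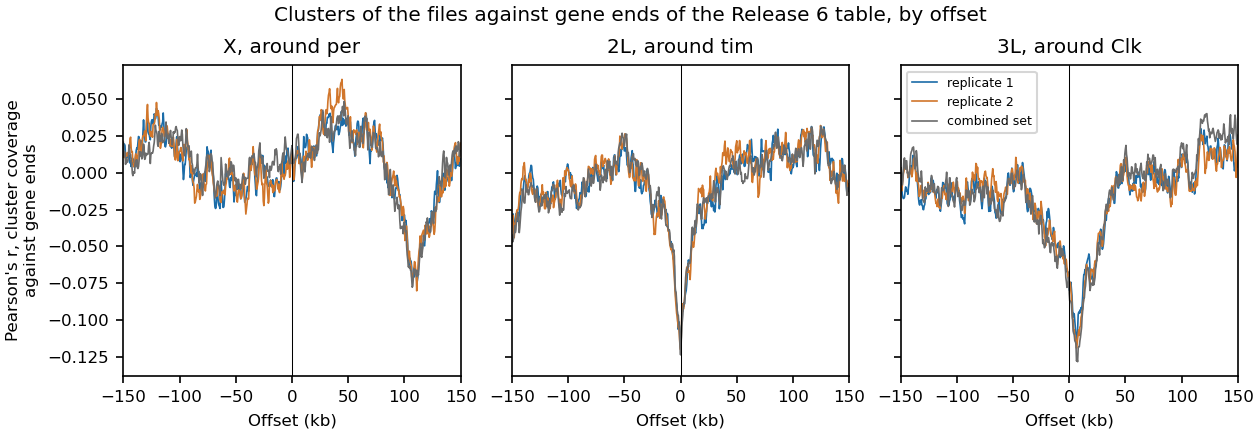
Pearson's r between cluster coverage and gene ends of the Release 6 table (vertical axis, no unit) at offsets of -150 to 150 kb (horizontal axis), around per, tim and Clk, with 1 line for each list. The lowest r lay near 0 kb on 2L, near 7 kb on 3L and near 110 kb on X, with every list dipping at about the same place.

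Cluster coverage differed widely among the 5 intervals of the rule, from nearly none over tim to most of the Pdp1 interval. With the 3L intervals moved down by 6.6 kb, Clk was covered to 0% in both replicates and to 12.6% in the combined set. Pdp1 was then covered to 49.1% in replicate 1 and 65.5% in replicate 2. Places of equal size also differed widely. In replicate 1 the middle 50% of places of the tim size on 2L ran from 0% to 49.5% covered. Between 13.6% of places, for Pdp1, and 63.6%, for tim, were covered as much or more. The spread among the genes is therefore not shown to be unusual. Of the 5 intervals, 4 were touched by a cluster in both replicates, namely per, vri, Clk and Pdp1, and tim was touched in replicate 2 alone. Among all places of the same sizes on the same arms, taken every 100 bp, 53.6% were touched in both replicates. The combined set touched 5 of 5 intervals, against 73.7% of places. With the Clk interval moved down by 6.6 kb, 3 of 5 were touched in both replicates. The intervals of per, vri and Pdp1 were covered above the arm median in both replicates, 3 of 5, and 43.4% of all places were. The median over the 5 genes was 29.4% of the interval in replicate 1 and 21.3% in replicate 2, and their mean was 25.4% ± 5.74 (SD, n = 2). In pooled heads, acetylation in few cells and weak acetylation in many cells cannot be told apart. No test was run, because the design has 1 condition and 2 ChIP libraries, and these counts lie close enough to the background that they single out no property of the 5 genes as a group.

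**Figure D2:**
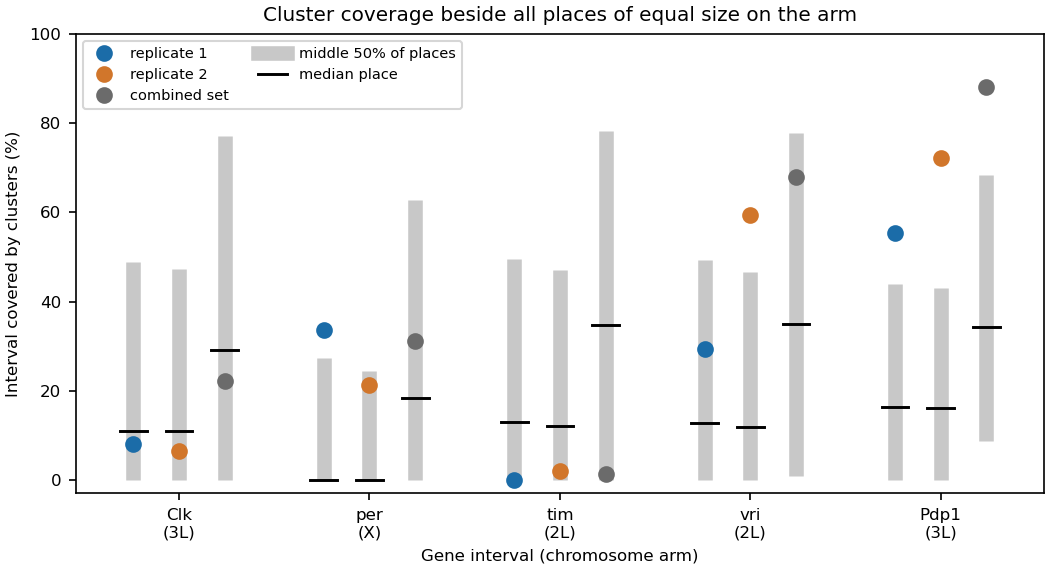
Percent of each gene interval covered by clusters (vertical axis) for replicate 1, replicate 2 and the combined set, with the median (black line) and the middle 50% (grey bar) of all places of equal size on the same arm. Pdp1 lay above the grey bar in every list, while tim lay at or near 0% in every list.

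Clk encodes the activator at the head of the loop. The interval of the rule, 3L:7763000-7776000, was covered to 8.05% in replicate 1, to 6.59% in replicate 2, with 22.3% in the combined set. The replicate mean was 7.32% ± 1.03 (SD, n = 2), below the arm's median place, and 52.1% of places of this size were covered as much or more. This coverage came from the lower end of a single long cluster that began 11.95 kb into the interval in replicate 1 and 12.1 kb into it in replicate 2 and ran on beyond it.

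With the interval moved down by 6.6 kb, where the offset places the gene, no cluster touched Clk in either replicate. The next higher cluster then began 5.55 kb away in replicate 1 and 5.74 kb away in replicate 2. The next lower ones ended 10.3 and 14.4 kb away. In the combined set 1 cluster of 1640 bp, at 3L:7763268-7764907, lay in the moved interval and covered 12.6% of it. Its score of 0.38 ranked 1447th among the 2095 clusters of the arm. Of all places of this size on 3L, 55.7% were touched by a cluster of replicate 1 and 55.9% by one of replicate 2, so that a place of this size without a cluster is common on the arm.

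The long cluster on the higher side of Clk stood out by score. It measured 11.3 kb in replicate 1, at 3L:7774954-7786292, and scored 0.91. In replicate 2 it began at 7775144 and was split, with 6.98 kb scoring 0.84 followed after 693 bp by 4.85 kb scoring 0.94. The combined set joined both into 12.9 kb at 7774742 to 7787657, with a score of 0.86 that ranked 34th of 2095 on 3L. The authors' score behaves as a log2 ratio, so these values correspond to 1.88-fold, 1.79-fold, 1.91-fold and 1.81-fold. In the Release 6 table the next gene beyond Clk on this side is CG32369, and Pdp1 follows it. Which gene the cluster covers was not determined here. The 43.0 kb between the Clk and Pdp1 intervals were covered to 47.6% in replicate 1, 43.5% in replicate 2, with 58.8% in the combined set. This is not the sequence between the genes. In the Release 6 table the start of Pdp1 differs from that of its interval by -7.54 kb, and the offset of 6.6 kb moves it lower still. The higher part of the stretch therefore appears to belong to Pdp1.

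per encodes the PERIOD repressor, the protein whose mutants shorten, lengthen or abolish daily rhythms of flies. Its interval, X:2579000-2587000, held 1 cluster in each list, over the lower part. Coverage was 33.7% in replicate 1, 21.3% in replicate 2, with 31.1% in the combined set. The replicate mean of 27.5% ± 8.77 (SD, n = 2) compares with a median of 0% for places of this size on X, and 23.9% of them were covered as much or more. When the interval was cut into 3 equal parts, the lowest was covered to 73.9% ± 14.0, the middle to 8.68% ± 12.3 and the highest to 0% in both replicates (SD, n = 2).

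The replicates agreed on the place of the per cluster but not on its strength. In replicate 1 it ran from 2579432 to 2582129, 2698 bp, with a score of 0.83, or 1.77-fold. In replicate 2 it ran from 2579839 to 2581544, 1706 bp, with a score of 0.52, or 1.44-fold. The first ranked 621st of 1340 clusters on X by score, near the arm median of 0.81, and the second ranked 1248th of 1275, near the bottom. The combined set gave 2487 bp from 2579424 to 2581910 with a score of 0.66, which ranked 418th of 2076. The combined set also held 2 clusters in the flanks that neither replicate list held. One of 1081 bp ended 0.183 kb below the interval and scored 0.46, and one of 1901 bp began 4.12 kb above it and scored 0.39. Between the per cluster and the next higher one, no base was called over 19.9 kb in replicate 1 and 20.5 kb in replicate 2.

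tim encodes the partner that stabilises PER and is degraded in light. Its interval, 2L:3493000-3508000, was nearly free of clusters, at 0% in replicate 1, 2.13% in replicate 2, with 1.32% in the combined set. The mean of 1.07% ± 1.51 (SD, n = 2) lies below the 2L median of 12.5% ± 0.542, and 63.6% of places were covered as much or more. The single cluster of each list sat on the higher edge. It ran from 3508417 to 3509837 in replicate 1, 0.417 kb above the interval. In replicate 2 it ran from 3507681 to 3509822, with 320 bp inside, and in the combined set from 3507803 to 3509942, with 198 bp inside. The higher ends lay 15 bp apart in the replicates, and the lower ends 736 bp. Whether tim counts as touched therefore rests on the lower edge of 1 cluster. In the Release 6 table the gene ends 0.119 kb above the interval, short of the replicate 1 cluster.

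The cluster at the edge of tim was short but not weak. It measured 1421 bp and scored 0.67 in replicate 1, and 2142 bp and 0.75 in replicate 2, or 1.59-fold and 1.68-fold. These ranked 669th of 1669 and 290th of 1632 on 2L. The combined score of 0.54 ranked 493rd of 2063. Below it the sequence was empty of clusters over 49.99 kb in replicate 1, 29.4 kb in replicate 2, with 28.9 kb in the combined set. Cluster-free stretches at least as long made up 37.5%, 46.5% and 29.2% of 2L in these lists, so tim shares this state with a large part of the arm. Within 50 kb on either side, coverage was 3.05% in replicate 1 and 8.00% in replicate 2, against medians of 23.9% and 23.0% for places of that size.

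**Figure D3:**
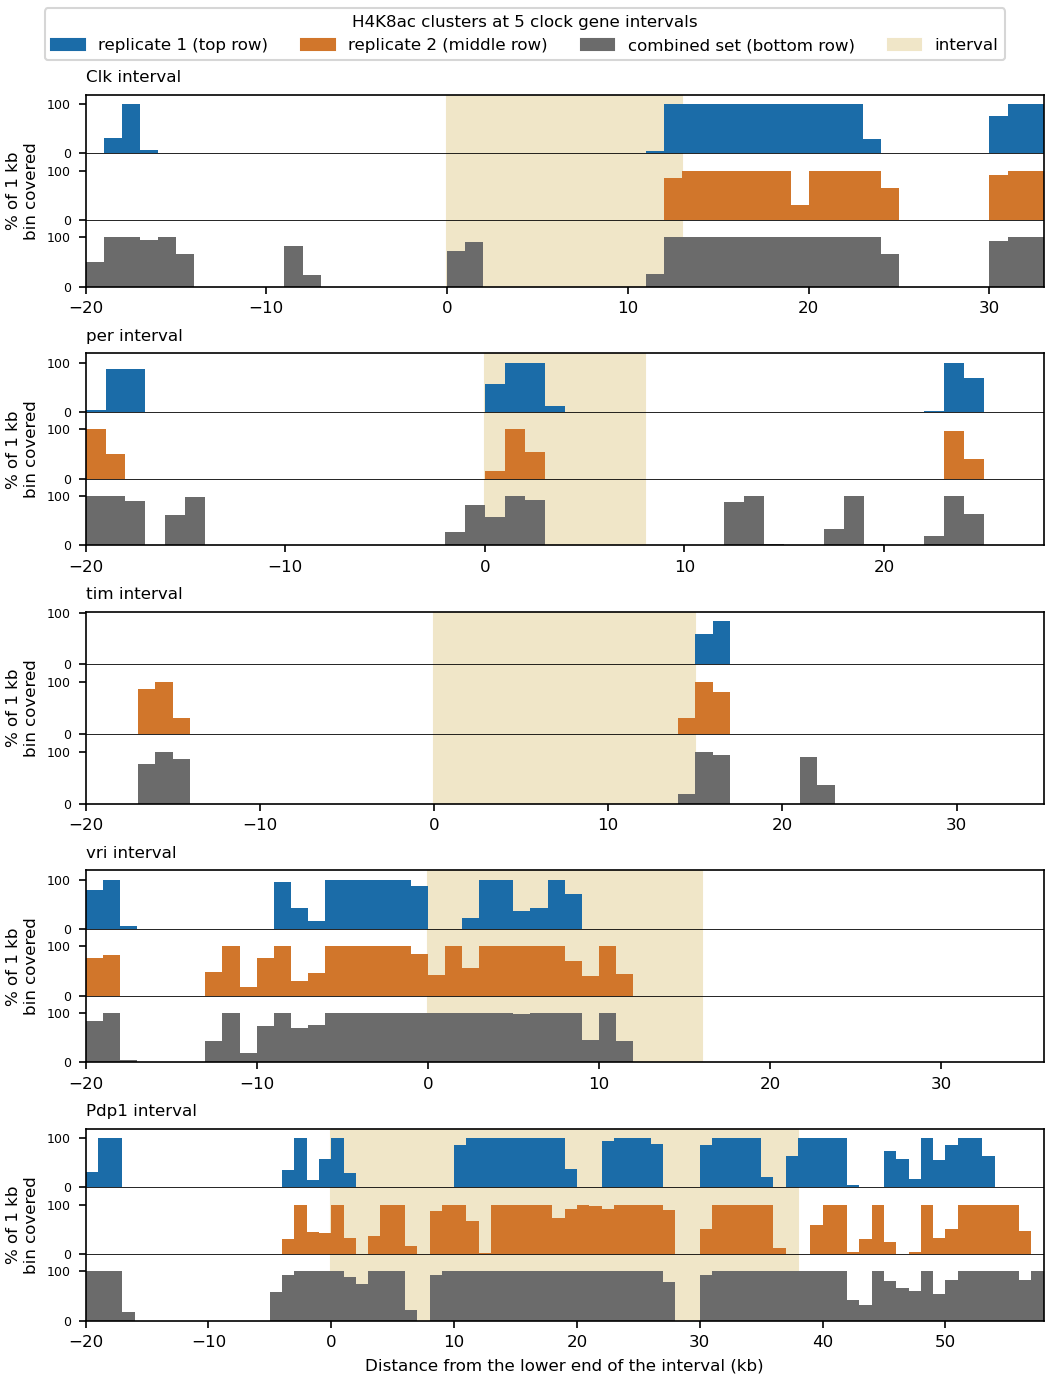
Percent of each 1 kb bin covered by clusters (vertical axis, 0 to 100% in each row) against the distance in kb from the lower end of the interval (horizontal axis), for replicate 1, replicate 2 and the combined set at the 5 intervals (shaded). Clusters fill much of Pdp1 and the lower part of vri, 1 short cluster lies in per, and within the tim and Clk intervals clusters lie only at the higher edge, apart from 1 in the lower part of Clk in the combined set.

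vri encodes a basic leucine zipper repressor of Clk. Its interval, 2L:5297000-5313000, was covered to 29.4% in replicate 1, 59.5% in replicate 2, with 67.9% in the combined set. The mean of 44.5% ± 21.2 (SD, n = 2) had the widest replicate spread of the 5 genes, and 26.6% of places on 2L were covered as much or more. In replicate 1 the interval held 2 clusters, 2574 bp scoring 0.59 and 2137 bp scoring 0.63. Replicate 2 held 3 clusters there, and the main one, from 5299454 to 5305704, bridged both of those of replicate 1. It measured 6251 bp and scored 0.91, or 1.88-fold, which ranked 46th of 1632 clusters on 2L and was the highest score of any replicate 2 member. Its higher end lay at 5305704 and that of the second replicate 1 cluster at 5305706.

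A further long cluster lay just below the vri interval in both replicates, but inside the gene as the Release 6 table places it. The gene start there differs from that of the interval by -8.06 kb, and the offset around vri was between -0.3 and 0 kb. The cluster began at -6.16 kb from the interval start in replicate 1 and at -6.46 kb in replicate 2. In replicate 1 it spanned 5290839 to 5296873 and scored 0.75, and in replicate 2 it spanned 5290536 to 5296849 and scored 0.88. These scores ranked 364th of 1669 and 73rd of 1632. The combined set gave 12.6 kb from 5290250 to 5302869 with a score of 0.68, ranked 171st of 2063, and so joined this cluster with the lower part of the interval. Moved down by 8 kb, to about where the gene begins in the Release 6 table, a window of the same size was covered to 65.4%, 84.9% and 96.4% in the 3 lists. The median places of this size on 2L were covered to 12.8%, 11.9% and 34.9%, and the share covered as much was not computed. This window leaves out the sparse higher part of the interval. Among moves of -10 to 10 kb, coverage was highest at -7 kb in every list. The higher part of the interval differed, since the highest of 3 equal parts was covered to 7.26% ± 10.3, against 64.2% ± 23.2 for the lowest and 61.9% ± 30.2 for the middle (SD, n = 2).

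Pdp1 encodes a basic leucine zipper activator of Clk and has many transcripts. Its interval, 3L:7819000-7857000, was the most covered of the 5, with 55.4% in replicate 1, 72.2% in replicate 2, with 88.1% in the combined set. The mean of 63.8% ± 11.9 (SD, n = 2) compares with a median of 16.2% ± 0.151 for places of this size on 3L, and 13.6% of them were covered as much or more. Moved down by 6.6 kb, the interval was covered to 49.1% and 65.5% in the replicates and 82.7% in the combined set, still above the arm median in every list. Each of 3 equal parts of the interval held clusters, and the middle one was the fullest, at 86.3% ± 10.7, beside 44.2% ± 19.9 for the lowest and 60.9% ± 5.21 for the highest (SD, n = 2).

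Pdp1 held more clusters than any of the other intervals, with scores on both sides of the arm medians. Its interval is also the longest, at 38 kb, and the count was not scaled to length. The vri interval of 16 kb held 2 clusters in replicate 1 and 3 in replicate 2, so the count alone does not set Pdp1 apart. The interval held 5 clusters in replicate 1 and 7 in replicate 2, from 1737 to 9226 bp long. In replicate 1 their scores ran from 0.64 to 0.75, beside an arm median of 0.64. In replicate 2 they ran from 0.49 to 0.91, on both sides of the arm median of 0.62. The strongest, from 7849492 to 7855118 in replicate 2, scored 0.91 and ranked 52nd of 1606, while its counterpart in replicate 1, from 7849139 to 7854209, scored 0.72 and ranked 463rd of 1595. The longest in replicate 1, 9226 bp from 7829143 to 7838368, scored 0.64 and overlapped 3 clusters of replicate 2. The replicates differed most in the lower part. Replicate 2 held a cluster of 2529 bp from 7822634 to 7825162, with a score of 0.74, in a stretch of 8.85 kb where replicate 1 held none. The combined set drew most of this into 19.7 kb from 7827070 to 7846778 and 12.3 kb from 7849075 to 7861412, both with a score of 0.64. By length these ranked 93rd and 157th of 2095 on 3L, and by score 226th and 224th, above the arm median of 0.43. With the flanks, 3 of 6 Pdp1 clusters lay above the arm median score in replicate 1, 6 of 9 in replicate 2, and 5 of 6 in the combined set.

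**Figure D4:**
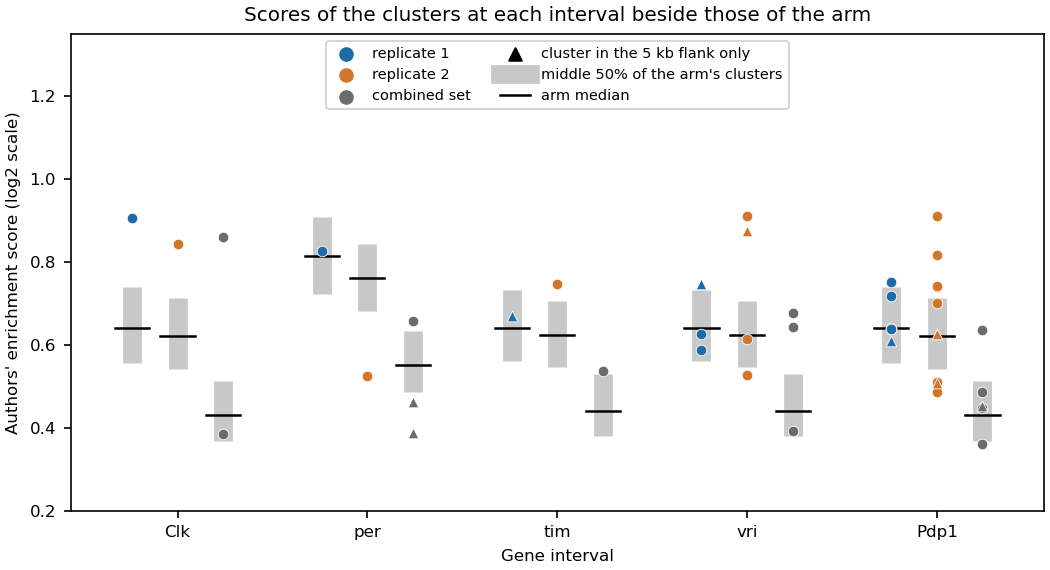
Authors' enrichment score on a log2 scale (vertical axis) of every cluster at the 5 intervals, as circles, or in the flank of 5 kb alone, as triangles, beside the arm's median (black line) and middle 50% (grey bar) in each list. Scores lay on both sides of the arm medians. Several lay above the grey bar, among them the edge cluster of Clk, and several below it, among them the replicate 2 cluster of per.

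Over all members the scores spread around those of their arms. Of the 12 clusters of replicate 1, 7 were in the upper 50% of their arm by score, as were 10 of 16 in replicate 2 and 10 of 15 in the combined set. The lowest and highest scores were 0.59 and 0.91 for replicate 1, 0.49 and 0.91 for replicate 2, and 0.36 and 0.86 for the combined set. Of these members, 6, 9 and 6 were Pdp1 clusters, which share 1 gene and are not independent. Across the members, the coverage of the interval and the scores of single clusters did not follow the same order. Pdp1 had the most coverage, while the edge cluster of Clk had the highest score in replicate 1. Of the 11339 bp of that Clk cluster, 1047 bp lay inside the interval. The edge cluster of tim scored above the arm median in every list. It had 0 bp inside the interval in replicate 1, 320 bp in replicate 2 and 198 bp in the combined set. For Clk and tim these scores therefore describe clusters that lie mostly beyond the interval. With the Clk interval moved down by 6.6 kb, that edge cluster is no longer a member, and Clk has no cluster to rank in either replicate.

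Among the members, 9 pairs of clusters overlapped one to one between the replicates. At Clk this holds only by the limit of the flank. There the replicate 1 cluster also overlaps a second cluster of replicate 2, which begins 6.81 kb above the interval and is not a member. The other 3 members of replicate 1 and 7 of replicate 2 were split, joined or without a counterpart, all at vri and Pdp1, and have no edge difference here. Of the 18 edges of the pairs, 12 lay within 500 bp of each other, the median difference was 293.5 bp, and the largest was 4172 bp at the higher end of the Clk edge cluster, which replicate 2 splits. Replicate 2 had the higher score in 3 of the 9 pairs, with differences from -0.30 at per to 0.19 at Pdp1. The Jaccard index, the share of covered bases that both replicates cover, was taken over each interval with 5 kb on either side. It was 0.632 at per against 0.513 over X. It was 0.652 at tim and 0.664 at vri against 0.649 over 2L, and 0.969 at Clk and 0.625 at Pdp1 against 0.676 over 3L. At tim all 1406 shared bases lay in the flank, since replicate 1 covered 0 bp of the interval itself. At Clk that index came from 1 cluster cut off by the end of the flank, and with the interval moved down by 6.6 kb neither replicate covers a base there.

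With 5 kb added on either side, 5 of 5 intervals were touched in both replicates, as were 62.7% of all places of these larger sizes. Coverage with the flanks was 12.2% ± 3.90 at per, 7.13% ± 2.04 at tim, 46.1% ± 13.0 at vri, 25.9% ± 0.584 at Clk and 61.9% ± 7.47 at Pdp1 (SD, n = 2). The median places of these sizes were covered to 6.31%, 15.4%, 15.7%, 13.1% and 17.9%, in the same order. As much or more was covered at 40.5% of places for per, 61.0% for tim, 25.03% for vri, 38.1% for Clk and 13.3% for Pdp1. For Clk this rise came from the edge cluster alone. With the Clk interval moved down by 6.6 kb, the interval and its flanks held no cluster in either replicate and were covered to 11.8% in the combined set.

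**Figure D5:**
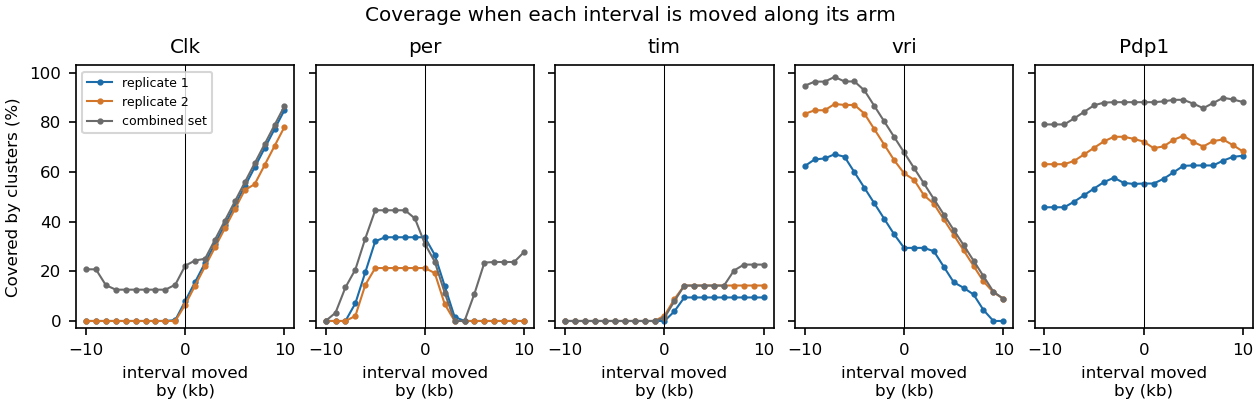
Percent of an interval of each gene's size covered by clusters (vertical axis) when it is moved along its arm by -10 to 10 kb (horizontal axis, 0 being the interval of the rule), with 1 line for each list. Coverage of Clk stays at 0% in both replicates for moves of -2 kb or further down and climbs steeply above 0, whereas Pdp1 stays between 45.8% and 74.6% in the replicates.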

How the data were processed

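The authors deposited 1 list of enriched regions for each ChIP library and 1 for the combined replicates, in FlyBase release 5 coordinates per the file headers. Each deposited region has a start, an end and a score, the authors' own value. The submitters' processing notes name Bowtie 0.12.7. How regions were called, at which threshold, and how replicates were combined is not given in the sources used here. When 2 was raised to the score, 100%, 100% and 99.8% of clusters gave whole-number ratios to the most frequent value (relative tolerance 1e-13, denominators up to 50000), so scores were read as log2.

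Coverage was counted base by base with Python 3.11.15, NumPy 2.4.6 and pandas 2.3.3, drawn with matplotlib 3.10.9, and tested on simulated data. An overlap of at least 1 bp counted as touched. The background was every place of equal size on the arm in steps of 100 bp, as a description with no test. Values are given per library, with mean ± SD over 2 replicates. Intervals, lists and alternatives were chosen with earlier results of these data known. The named genes are the 5 of the rule. A list of other clock genes was not analysed, since no places in release 5 were used for them. Promoter motifs were not searched, since no promoter sequence was used here.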

Additional observations from a re-analysis of the deposited data

How the results depend on the processing

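The count of 4 genes touched in both replicates fell to 2 with the upper 50% of each list by score and to 1 when 50% of the interval had to be covered, by the construction of these settings. It stayed between 3 and 5 under the others. The median coverage of 25.4% fell to 7.32% with the upper 50% by score and to 18.0% with clusters of at least 2000 bp. It ran from 21.3% to 29.4% when 1 replicate was left out, with 4 to 5 genes touched. Between 2 and 4 genes were above the arm median under every alternative run. The upper 50% by score was taken over each whole list and not by arm. Scores ran higher on X, with replicate 1 medians of 0.81 on X and 0.64 on 2L and 3L. With the upper 50% by score, per fell to 16.9%, vri to 19.5% and Pdp1 to 42.7%, and with clusters of at least 2000 bp per again gave 16.9%, because its replicate 2 cluster dropped out. With 5 kb on either side, per gave 12.2%, tim 7.13% and Clk 25.9%, and with 1 kb removed at either end Clk gave 0.214%. The combined set gave 67.9% for vri, 22.3% for Clk and 88.1% for Pdp1. Moving the 3L intervals was chosen after seeing the data, and it took Clk from 7.32% to 0%. No paired analysis was possible because the input libraries have no list of their own here and no result comes from a test. Depth is unknown, so a place without a cluster was not called, which does not show that acetylation is absent.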

Other observations

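One of the longest clusters of X lay below per. In the combined set a cluster of 29.9 kb, from 2531999 to 2561888, ended 17.1 kb below the per interval, scored 0.94 and ranked 7th of 2076 on X by length. Replicate 1 held clusters of 12.3 kb, scoring 1.13, and of 6.15 kb, scoring 0.92, within that stretch, and replicate 2 held 17.1 kb scoring 1.01, which ranked 5th of 1275 by length. In the Release 6 table sgg, which encodes a kinase that phosphorylates TIM, is among the genes on this side of per. Which gene these clusters cover was not determined.

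From the higher part of the vri interval upwards, by contrast, calls were absent over a long stretch. From the last cluster in the vri interval, no base of 2L was called over 349.9 kb in replicate 1 and 381.5 kb in replicate 2, the stretch ranked 2nd by length of 1670 and of 1633 on the arm. In the combined set the stretch measured 211.1 kb and ranked 6th of 2064. The Release 6 table lists CG14024, Ncoa6 and cype on this side of vri. The densely covered lower part of vri lies beside one of the longest cluster-free stretches of the arm.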
